A study of Mus musculus with 24 samples.

Results

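The vacuolar-type proton ATPase (V-ATPase) genes were followed in mouse kidneys taken whole at embryonic day 18.5. The set holds 33 genes chosen by symbol: the subunits of the pump, its accessory proteins and the factors that assemble it. All 33 were found among the 54393 genes of the deposited count tables. Of these, 5 are the isoforms for which intercalated cells are known (Atp6v1b1, Atp6v0a4, Atp6v0d2, Atp6v1c2 and Atp6v1g3), and the other 28 are more widely expressed. The study asks what the transcription factors Dmrt2, Hmx2 and Hmx3 do in the development of intercalated cell subtypes.

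Bulk RNA was read in 24 libraries from 3 mouse lines. The groups were 3 Dmrt2 knockouts with 3 controls, 6 knockouts of Hmx3 and Hmx2 together with 6 controls, and 3 libraries labelled as knockouts of Dmrt2, Hmx3 and Hmx2 (labelled triple knockout below) with 3 controls. Controls were littermates of the same line, and the labels give neither the alleles nor the exons removed. The Hmx3 Hmx2 line was deposited in 2 tables, with replicates 1 to 3 in the first and 4 to 6 in the second. Sample descriptions mark the 3 controls of the first table as WT, and for the other controls they give no genotype.

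The V-ATPase uses ATP to pump protons into compartments such as lysosomes, endosomes and secretory vesicles, and, in a few cell types, out of the cell. Its cytosolic V1 sector splits ATP, and its membrane sector V0 carries the protons. Several subunits exist as isoforms encoded by paralogous genes. In the collecting duct, intercalated cells carry the pump at high density in the plasma membrane: type A cells secrete acid across the apical side, and type B cells carry it on the basolateral side. Human mutations in the genes of the B1 and a4 isoforms cause distal renal tubular acidosis. Foxi1, a forkhead transcription factor, is known to drive several of these isoforms in intercalated cells.

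Libraries held 52286824 to 127339273 counted reads, so 3 reads were worth 0.0235 to 0.0584 CPM (reads of a gene relative to the TMM-scaled size of its library). Dmrt2 and Hmx2 checked the labels of the first 2 lines. Dmrt2 stood at 1.56 to 2.26 CPM in Dmrt2 knockouts against 12.2 to 14.9 in controls. Hmx2 stood at 0.0 to 0.0604 CPM in Hmx3 Hmx2 knockouts against 1.57 to 2.25 in controls. Hmx3, with 0 to 4 reads in Hmx3 Hmx2 knockouts and 2 to 8 in their controls, was too low to check its part of the label. In the libraries labelled triple knockout Hmx2 was at 0.0 to 0.0211 CPM against 2.31 to 3.31, but Dmrt2 was higher than in controls, at 17.7 to 19.2 against 10.7 to 12.1 CPM. Hmx2 thus set these 3 libraries apart from their controls, whereas the level of Dmrt2 RNA did not show a loss. With the removed exons unknown, a count over the whole gene cannot check the Dmrt2 part of their label. Slc4a1, Slc26a4 and Tldc2, given below, moved in these libraries in the same direction as in Dmrt2 knockouts. Whether Dmrt2 function was lost in them was not tested. Expression of Y-linked genes was found in 1 of 3 knockouts and 3 of 3 controls of the Dmrt2 line, 2 of 6 and 4 of 6 of the Hmx3 Hmx2 line, and 2 of 3 of each triple group. The labels do not say that the libraries of a group came from separate embryos, so p-values measure the spread between libraries, which may be technical. In bulk RNA, fewer cells of a type and less RNA per cell cannot be told apart.

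In control kidneys the highest V-ATPase RNA levels were those of widely expressed members, and each intercalated-cell isoform was below the sum of the other paralogs of its subunit. Levels of different genes are ranked here as CPM per kb of exon, over the 12 controls. Atp6v1g1, a stalk subunit of V1, led with a median of 90.8 CPM per kb (range 82.7 to 109.3), followed by Atp6v1f, of the V1 central rotor, at 70.1 (59.9 to 82.7) and Atp6v0d1, the foot of the V0 rotor, at 60.6 (54.7 to 63.9). The range of Atp6v1g1 lay just above that of Atp6v1f, and the ranges of Atp6v1f and Atp6v0d1 overlapped. Atp6v1a, the catalytic subunit, stood at 50.6 CPM per kb (37.4 to 60.0).

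Of the isoforms, Atp6v1b1 ranked 12 of 33 at a median of 21.2 CPM per kb (19.3 to 24.7), next to Atp6v0a4, which ranked 13 at 21.2 (16.5 to 27.9). The ranges of this neighbouring pair overlapped. Atp6v0a4 was the highest single gene of the a subunit, against medians of 13.2 for Atp6v0a1, 11.7 for Tcirg1 and 10.1 for Atp6v0a2. On mm39, Atp6v1b1 lies on chromosome 6 (83719972 to 83735837), as does Atp6v0a4 (38025418 to 38101521). The other 3 were lower: Atp6v1g3 at 6.85 CPM per kb (5.53 to 8.24), Atp6v0d2 at 6.84 (5.32 to 7.89) and Atp6v1c2 at 4.22 (3.19 to 6.18). At the bottom, the long transcripts of the reassembly factors Dmxl1 and Dmxl2 stood at 2.94 and 2.40 CPM per kb. Atp6v1e2, an isoform of the E subunit known from testis, had 0 to 2 reads per library, and it was the single member that passed the filter on low counts in no comparison.

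**Figure D1:**
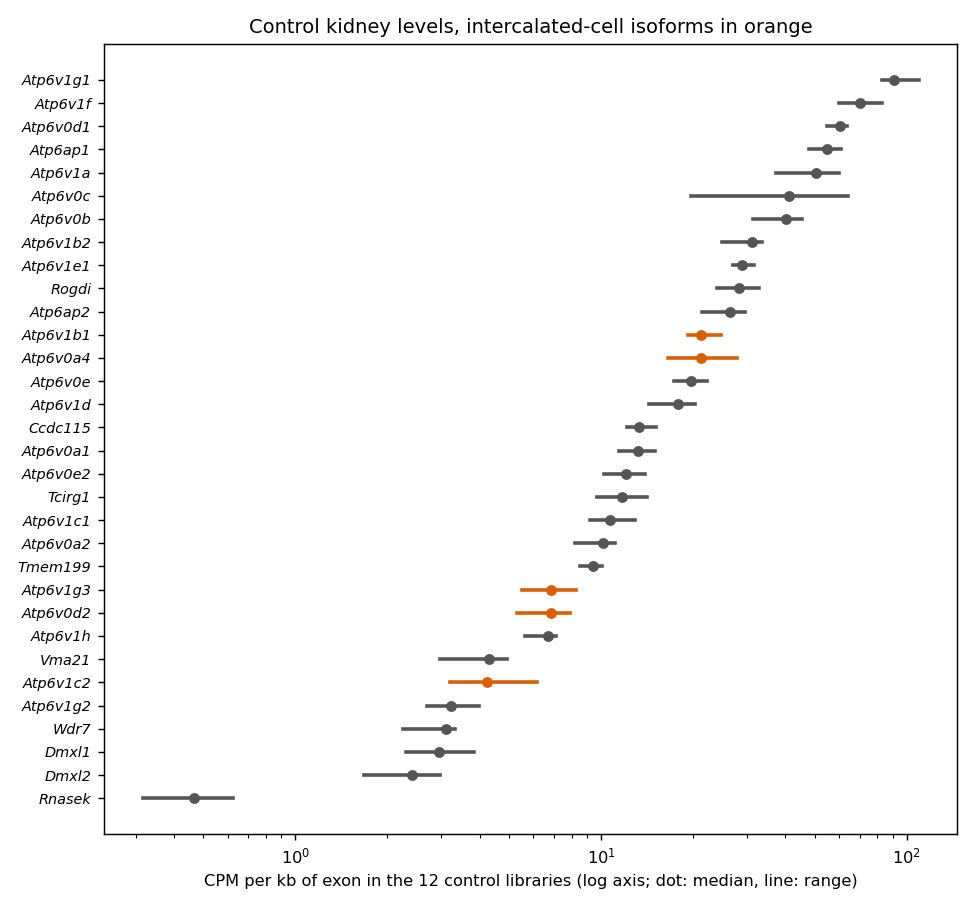
Level of each V-ATPase gene with reads in every control library, in CPM per kb of exon on a log axis, ordered by median. Dots are medians and lines the ranges over 12 control libraries; the isoforms of intercalated cells (orange) lie from 4.22 (Atp6v1c2) to 21.2 (Atp6v1b1), below Atp6v1g1 at 90.8.

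Within each subunit, the share of the isoform per kb of exon was larger for B, a and C than for d and G in every library. Over all 24 libraries Atp6v1b1 made up a mean of 42.3% of the B subunit RNA (with Atp6v1b2), Atp6v0a4 37.9% of the a subunit RNA (with Atp6v0a1, Atp6v0a2 and Tcirg1), Atp6v1c2 30.2% of C, Atp6v0d2 10.3% of d and Atp6v1g3 6.50% of G. The order among B, a and C differed between groups: in Dmrt2 knockouts C had a mean of 37.2% and a 33.6%, and in controls of the triple line a had 43.4% and B 40.6%. Shares rest on the exon length of all transcripts of a gene in the deposited tables. In reads without division by length, Atp6v1c2 made up 14.5% of C.

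The G subunit share was the one that stood apart in Dmrt2 knockouts. Atp6v1g3 gave 4.41%, 3.73% and 4.34% of G subunit RNA there, against 5.91%, 5.80% and 6.46% in controls. The groups did not overlap. In the libraries labelled triple knockout its share was 6.56%, 5.69% and 6.60%, against 6.30%, 8.50% and 8.05%, with overlap. The share of Atp6v1b1 in B moved the other way in the same libraries, at 46.4%, 48.3% and 48.7% against 41.4%, 39.7% and 40.7%, without overlap, where both a higher Atp6v1b1 and a lower Atp6v1b2 entered the ratio. The share of Atp6v0a4 in a was 36.8% to 40.6% there, against 40.9% to 45.1% in controls. These shares are descriptions and were not tested.

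**Figure D2:**
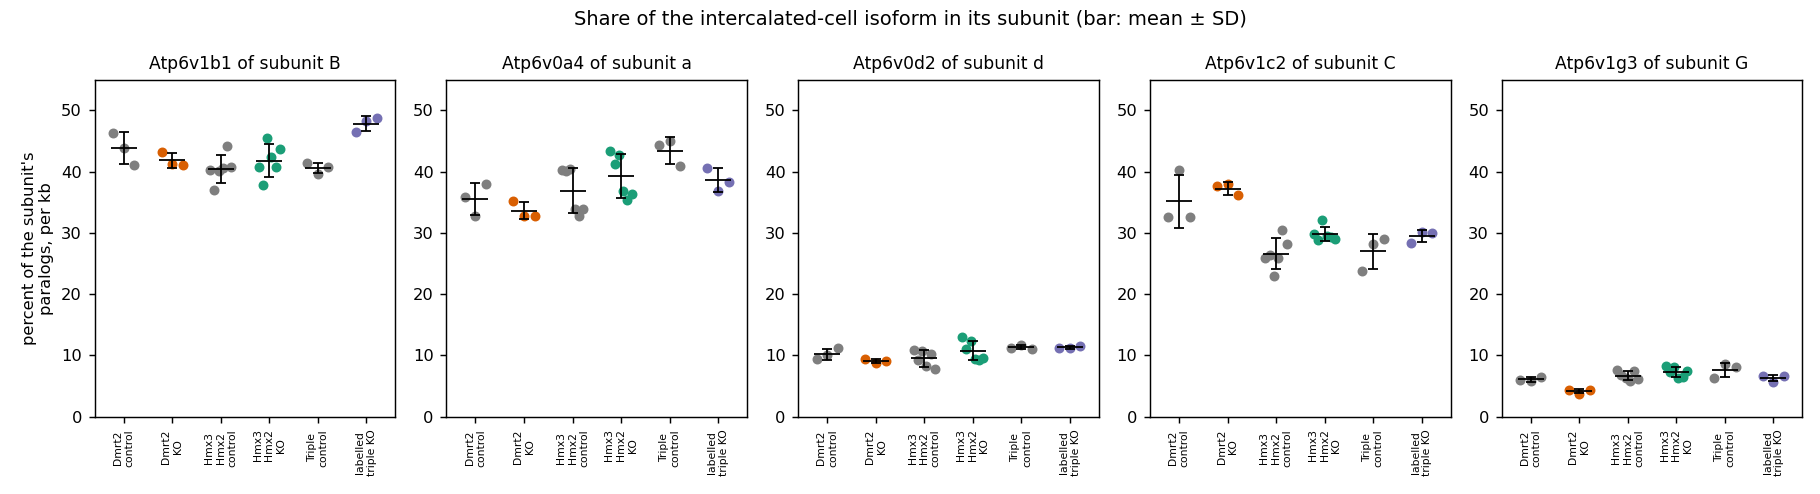
Percent of the RNA of each subunit, per kb of exon, that came from its intercalated-cell isoform, by library; points are libraries and bars mean ± SD of the group. The 3 Dmrt2 knockouts lie between 3.73% and 4.41% for Atp6v1g3, below all their controls, and the libraries labelled triple knockout between 46.4% and 48.7% for Atp6v1b1, above all theirs.

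In Dmrt2 knockouts, 1 of the 32 tested V-ATPase genes changed: Atp6v1g3, the kidney isoform of a V1 stalk subunit, fell. Called means an adjusted p under 0.05 in edgeR's quasi-likelihood test, adjusted over all genes tested. Of all 19807 genes tested, 0.444% were called in either direction and 0.257% were called lower. Atp6v1g3 (chromosome 1, 138201476 to 138217200 on mm39) stood at 8.37, 6.85 and 8.21 CPM in knockouts and at 12.4, 12.5 and 14.7 CPM in controls. Every knockout was below every control. The log2 fold change was −0.75 ± 0.11 (SE, n = 3 and 3), 1.69-fold lower, with an adjusted p of 0.015 from edgeR. The call ended without knockout replicate 2 (−0.67, adjusted p = 0.098) and with the presence of Y-linked transcripts as a covariate (−0.65, adjusted p = 0.66 in edgeR), a presence that goes partly with genotype in this line.

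The other 4 isoforms were not called in Dmrt2 knockouts. Atp6v1b1, the B subunit of the acid-secreting pump, stood at 87.997, 83.03 and 81.9 CPM against 94.4, 92.7 and 95.5 CPM, with no overlap between groups (log2 fold change −0.16 ± 0.05, adjusted p = 0.24 in edgeR). Atp6v0d2, the second d isoform, shared by intercalated cells, osteoclasts and macrophages, stood at 17.1, 16.2 and 16.9 against 17.0, 19.3 and 21.4 CPM (−0.20 ± 0.09). Atp6v0a4, the a isoform of these cells, gave −0.11 ± 0.08, and Atp6v1c2, the second C isoform, gave 0.01 ± 0.11. The median log2 fold change was −0.16 over the 5 isoforms, −0.03 over the other 27 tested members and −0.0021 over all genes tested. Foxi1, at 35.8, 35.2 and 32.6 against 39.6, 38.9 and 45.9 CPM, was itself not called (−0.27 ± 0.07, adjusted p = 0.16 in edgeR). As a ratio within a library, read between groups and not as a ranking of the 2 genes, Atp6v1g3 CPM were 0.195 to 0.252 of Foxi1 CPM in knockouts and 0.312 to 0.321 in controls, a ratio formed after the values were seen.

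The widely expressed members lay close to 0 in this line. None of the 27 was called, and at an unadjusted p under 0.05, 8 of the 27 passed, against 12.3% of all genes. Of the 8, 5 were lower, against 5.34% of all genes, and 3 higher. With the isoforms, 11 of the 32 members passed. The largest values among the 27 were Dmxl1 at 0.27 ± 0.10 and Dmxl2 at 0.23 ± 0.08 above controls, and Atp6v1g1 at −0.19 ± 0.05 and Atp6v1f at −0.15 ± 0.06 below. Groups did not overlap for 8 of the 32 members, against 17.4% of all genes tested in either direction. Of these, 3 lay above controls and 5 below, the isoforms Atp6v1g3 and Atp6v1b1 among the 5, against 7.71% of all genes below. Dmxl1 and Dmxl2 have 21923 and 13285 exon bases, and genes of at least 10000 exon bases had a median of 0.10 in this comparison. Atp6v1g1 and Atp6v1f have 1135 and 1063, and genes under 1500 had a median of −0.09. The part of length in the values of these members was not tested.

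In Hmx3 Hmx2 knockouts none of the 32 tested members was called, where 4 of 19050 genes tested, or 0.021%, were. At an unadjusted p under 0.05, 6 members passed, against 4.93% of all genes. In DESeq2 the count of called members was also 0. Atp6v1g3, which fell in Dmrt2 knockouts, ran from 11.2 to 16.0 CPM (median 13.6) here, against 10.4 to 15.2 (median 11.97) in controls (log2 fold change 0.15 ± 0.08, n = 6 and 6). The groups overlapped. All 5 isoforms had log2 fold changes above 0, from 0.09 to 0.22, with a median of 0.15, against 0.02 for the other 27 members; 53% of all genes lay below 0.

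The isoforms closest to a separation of groups in this line were Atp6v1c2 and Atp6v0d2. Atp6v1c2 ran from 9.27 to 10.3 CPM (median 9.44) in knockouts and from 6.94 to 9.26 (median 8.60) in controls, without overlap (0.20 ± 0.07, unadjusted p = 0.014, adjusted p = 0.94 in edgeR). It was the single member without overlap, against 0.0787% of all genes. Atp6v0d2 ran from 18.0 to 22.9 CPM (median 19.7) against 14.4 to 18.7 (median 17.8), with 0.22 ± 0.06 and an unadjusted p of 0.0020 from edgeR (adjusted p = 0.91). Foxi1 was at 0.19 ± 0.05, also not called. Among the widely expressed members, Tcirg1, the a3 isoform of lysosomes and osteoclasts, was lowest at −0.15 ± 0.04, and Dmxl1 highest at 0.21 ± 0.14.

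The 2 deposited tables of this line differed in Atp6v0a4 more than the genotypes did. Atp6v0a4 stood at 116.3 to 122.9 CPM in the 3 controls of the first table and at 91.9 to 95.4 in those of the second, and at 117.2 to 134.2 against 95.5 to 105.4 in the knockouts. The effect within each table was alike: 0.09 ± 0.06 in the first and 0.10 ± 0.04 in the second. For Atp6v1c2 it was 0.32 ± 0.11 and 0.09 ± 0.09, and for Atp6v1b1 0.21 ± 0.10 and 0.03 ± 0.07. What sets the tables apart is not given in the labels.

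In the libraries labelled triple knockout, 2 of the 32 members fell, Atp6v1g3 and Atp6v1h, against 1.03% of 21537 genes called in either direction and 0.446% called lower. Atp6v1g3 stood at 10.9, 9.40 and 11.4 CPM against 13.8, 15.1 and 15.6 CPM in controls. The groups did not overlap, and the log2 fold change was −0.48 ± 0.09 (1.40-fold lower, adjusted p = 0.040 in edgeR). Atp6v1h (chromosome 1, 5140241 to 5232752 on mm39), the regulatory H subunit of V1, stood at 57.7, 56.3 and 55.6 CPM against 69.5, 69.1 and 64.7 CPM. Its groups did not overlap either (−0.26 ± 0.05, 1.20-fold lower, adjusted p = 0.039 in edgeR). Leaving out any 1 of 5 of the 6 libraries ended each call. For Atp6v1g3 these were all but control replicate 1 (adjusted p up to 0.11), and for Atp6v1h all but control replicate 3 (up to 0.14). With a filter at a mean of at least 1 CPM neither was called (adjusted p = 0.052 for each in edgeR). With Y-linked transcripts as a covariate Atp6v1h was at an adjusted p of 0.056 in edgeR.

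Atp6v1b1 lay on the other side of 0 from Atp6v1g3 in these libraries. It stood at 105.8, 107.2 and 105.5 CPM against 104.4, 90.9 and 87.5 in controls (log2 fold change 0.18 ± 0.06, adjusted p = 0.18 in edgeR). The knockouts lay close together and just above the highest control. Atp6v0a4 was at 113.9, 103.0 and 115.2 against 138.9, 136.8 and 107.5 CPM (−0.20 ± 0.10, adjusted p = 0.33 in edgeR), with control replicate 3 among the knockouts. Without that library Atp6v0a4 was called (−0.32, adjusted p = 0.022 in edgeR). Atp6v0d2 gave −0.16 ± 0.07 and Atp6v1c2 −0.05 ± 0.10. Foxi1 was at 43.4, 44.9 and 41.2 against 42.2, 41.1 and 39.9 CPM (0.08 ± 0.05).

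Most widely expressed members had values below 0 in this comparison, by small amounts. Of the 27 tested, 20 were below 0, against 49.8% of all genes, with a median of −0.11 against 0.00098 over all genes. At an unadjusted p under 0.05, 12 of the 27 were lower, against 8.63% of all genes tested that were lower by the same rule, and 2 were higher. With the isoforms, 13 of the 32 members were lower and 3 higher. Groups did not overlap for 16 of the 32 members, against 24.5% of all genes in either direction. Of these, 13 lay below controls, the isoforms Atp6v1g3 and Atp6v0d2 among them, against 12.9% of all genes below. After Atp6v1h, the lowest were Atp6v1b2, the widely expressed B subunit, at −0.25 ± 0.06 (adjusted p = 0.082 in edgeR) and Atp6v1c1, its C counterpart, at −0.24 ± 0.07. Atp6v1b2 stood at 147.7, 138.9 and 134.6 against 178.8, 167.5 and 154.4 CPM. The highest were Atp6v1g2, the G isoform known from neurons, at 0.24 ± 0.11, and Dmxl1 at 0.23 ± 0.08. Genes of at least 10000 exon bases had a median of 0.06 here, and genes under 1500 a median of 0.07.

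The mitochondrial ATP synthase is a distinct, proton-driven enzyme that makes ATP. In the same libraries all 16 of its tested genes were below 0, against 49.8% of all genes, with a median of −0.14. At an unadjusted p under 0.05, 11 of them passed, against 17.9% of all genes, and 0 were called. Of 20 lysosome genes 13 were below 0, with a median of −0.08 and 0 called. In the Dmrt2 comparison the medians of these lists were −0.10 and 0.0059, and in the Hmx3 Hmx2 comparison 0.0051 and −0.0067, with 0 called in each.

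**Figure D3:**
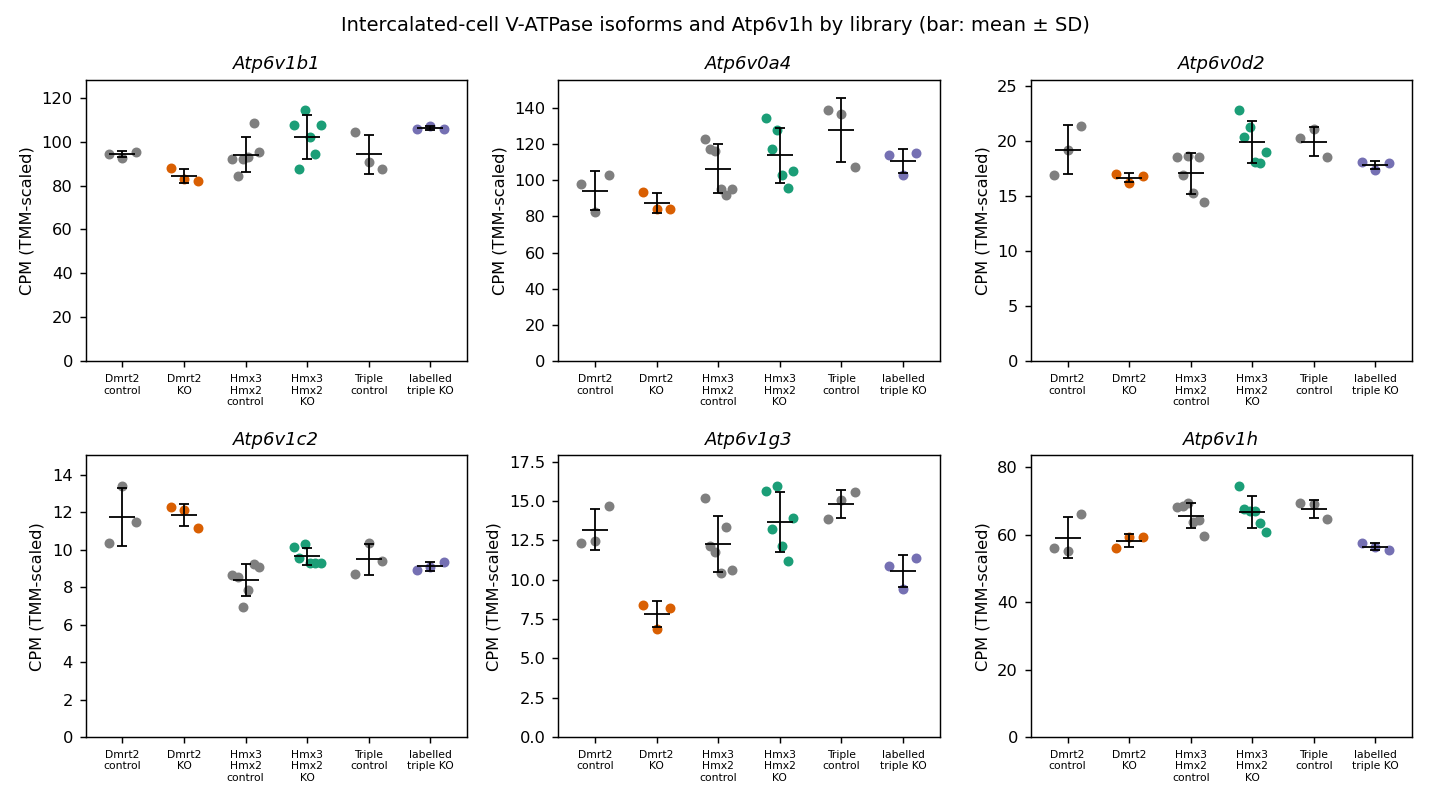
CPM of the 5 intercalated-cell isoforms and of Atp6v1h in every library, by group, with mean ± SD. Atp6v1g3 lies between 6.85 and 8.37 CPM in Dmrt2 knockouts and between 9.40 and 11.4 in libraries labelled triple knockout, below the controls of each line, while the Hmx3 Hmx2 groups overlap.

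**Figure D4:**
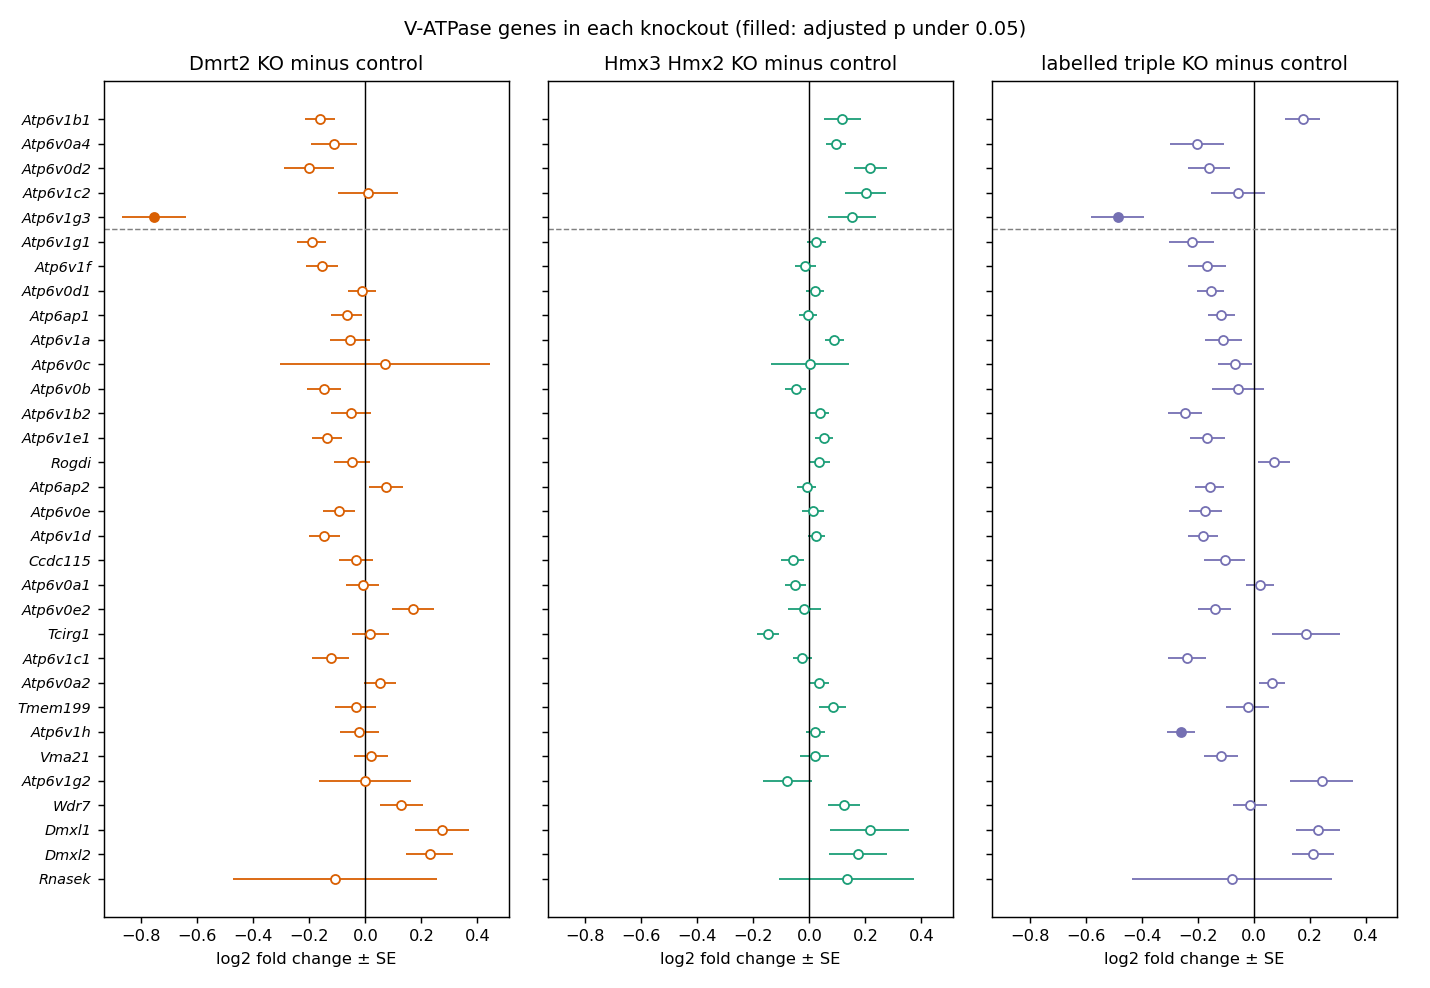
Log2 fold change ± SE of the 32 tested V-ATPase genes in each knockout against controls of its own line, isoforms above the dashed line and other members below it in order of control level. Filled points passed an adjusted p under 0.05: Atp6v1g3 at −0.75 and −0.48, and Atp6v1h at −0.26.

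The paralogs of the 5 isoforms gave no call in any of the 3 comparisons. Among the a subunits, Atp6v0a1, abundant in neurons, had log2 fold changes of −0.01 ± 0.06 in Dmrt2, −0.05 ± 0.04 in Hmx3 Hmx2 and 0.02 ± 0.05 in labelled triple knockouts. Atp6v0a2, a form of the Golgi, gave 0.05 ± 0.06, 0.03 ± 0.04 and 0.06 ± 0.05 in the same order. Its triple groups did not overlap but lay close, at 69.3, 71.2 and 71.8 against 68.0, 68.2 and 67.4 CPM. Tcirg1 was the widest of the a paralogs, from −0.15 ± 0.04 in the Hmx3 Hmx2 line to 0.19 ± 0.12 in the triple line, where its groups overlapped at 51.1, 61.0 and 65.3 against 58.0, 53.4 and 44.7 CPM.

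Atp6v0d1, the widely expressed paralog of Atp6v0d2, stood at 94.6, 91.6 and 91.7 against 106.9, 104.9 and 98.0 CPM in the triple line, without overlap (−0.15 ± 0.05, adjusted p = 0.15 in edgeR), and at −0.01 ± 0.05 and 0.02 ± 0.03 in the Dmrt2 and Hmx3 Hmx2 lines. Atp6v1g1, the main G subunit, was at 104.2, 103.2 and 105.1 against 113.8, 118.8 and 124.0 CPM in the Dmrt2 line (−0.19 ± 0.05, adjusted p = 0.15 in edgeR) and at 89.9, 89.5 and 92.9 against 120.7, 93.9 and 103.9 CPM in the triple line (−0.22 ± 0.08). In both lines the knockout and control groups did not overlap. Atp6v1c1 was at −0.12 ± 0.07 in the Dmrt2 line and at −0.02 ± 0.03 in the Hmx3 Hmx2 line.

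None of the accessory and assembly proteins was called in any comparison. Vma21, Tmem199 and Ccdc115, which assemble the V0 sector in the endoplasmic reticulum and Golgi, had log2 fold changes between −0.12 and 0.08 over the 3 comparisons. The accessory proteins Atp6ap1 and Atp6ap2, the latter also known as the prorenin receptor, lay between −0.16 and 0.08. For Atp6ap1, Atp6ap2 and Vma21 every library labelled triple knockout was below every control. Of these Atp6ap2 was the lowest, at 69.7, 63.7 and 65.3 against 73.9, 73.6 and 74.6 CPM (−0.16 ± 0.05, adjusted p = 0.16 in edgeR). Dmxl1, Dmxl2, Wdr7 and Rogdi help the V1 sector back onto the membrane. Dmxl1 (0.27, 0.21 and 0.23) and Dmxl2 (0.23, 0.17 and 0.21) were above 0 in the Dmrt2, Hmx3 Hmx2 and triple comparisons, and Wdr7 and Rogdi lay between −0.05 and 0.13.

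The effects of the knockouts on Atp6v1g3 differed between lines when the difference itself was tested in a joint fit of the 24 libraries. The Dmrt2 effect minus the Hmx3 Hmx2 effect was −0.91 ± 0.14 (adjusted p = 0.0024 in edgeR), the single member called of 32, against 0.154% of genes called and 0.127% called lower. It kept its call without each of the 18 libraries in turn (adjusted p at most 0.021). Foxi1 differed in the same contrast, by −0.46 ± 0.09 (adjusted p = 0.019 in edgeR). The effect in libraries labelled triple knockout minus the Hmx3 Hmx2 effect was −0.64 ± 0.14 for Atp6v1g3 (adjusted p = 0.022) and −0.29 ± 0.07 for Atp6v1h (adjusted p = 0.038), both in edgeR, against 0.968% of genes called and 0.344% called lower. The first of these ended without triple knockout replicate 2 or 3 or control replicate 2 (adjusted p up to 0.086), and the second in 10 of 18 such fits (up to 0.12).

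Between the libraries labelled triple knockout and the Dmrt2 knockouts, no member differed, against 0.394% of genes called. At an unadjusted p under 0.05, 6 members passed, against 11.4% of all genes, and DESeq2 also called 0. For Atp6v1g3 the difference was 0.27 ± 0.16, and for Atp6v1b1 0.33 ± 0.11 (adjusted p = 0.25 in edgeR). A missed threshold does not show that the effects were alike. Without Dmrt2 control replicate 3, 1 member was called, Atp6v1h (−0.33, adjusted p = 0.025 in edgeR).

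Beside the pump, a list of 19 other intercalated cell genes held a few that changed by more than any V-ATPase member. In Dmrt2 knockouts 3 were called higher and 3 lower, against 0.444% of all genes called, and 13 were not called. The list had a median log2 fold change of −0.15, against −0.16 over the 5 pump isoforms. Slc4a1, the bicarbonate exchanger of type A cells and of red cells, stood at 3.13 to 4.33 against 15.5 to 18.3 CPM (−2.19 ± 0.13), and Slc26a4, the pendrin gene of type B cells, at 14.9 to 17.4 against 3.39 to 6.32 (1.84 ± 0.22). Aqp6, a water channel of type A cells, also fell (−4.24). The other 3 moved by less than Atp6v1g3: Kit fell (−0.56), and Insrr (0.61) and Slc4a9 (0.52) rose. In Hmx3 Hmx2 knockouts 1 of the 19 was called, against 0.021% of all genes: Slc26a4, which fell (−1.31 ± 0.14). In the libraries labelled triple knockout 3 rose, 2 fell and 14 were not called, against 1.03% of all genes called, with Slc4a1 at −1.28 ± 0.13 and Slc26a4 at 0.77 ± 0.10. The 5 pump isoforms lay within −0.75 to 0.22 in all 3 comparisons.

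Tldc2, which encodes a TLDc-domain protein, was called in all 3 comparisons. Proteins of this domain family are known to bind the V-ATPase. It stood at 9.55, 9.98 and 9.04 CPM in Dmrt2 knockouts against 1.24, 1.41 and 1.63 in controls (2.73 ± 0.14, adjusted p = 9.9e-07 in edgeR). In Hmx3 Hmx2 knockouts it was at 0.0302 to 0.107 CPM (median 0.0850) against 0.507 to 1.41 (median 0.728), a log2 fold change of −3.47 ± 0.34. In libraries labelled triple knockout it was at 5.19, 4.12 and 6.57 against 0.754, 1.28 and 0.824 CPM (2.48 ± 0.24). The other 4 tested genes of the family were not called in any of the 3.

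The summed levels of 5 marker lists of other cell types did not overlap between the triple groups and are given beside the V-ATPase values there. The other marker lists overlapped. Such gaps are common with 3 libraries against 3: of single genes, 24.5% did not overlap in the triple comparison and 17.4% in the Dmrt2 comparison. The summed CPM of 7 macrophage markers was 108.7 to 117.7 in libraries labelled triple knockout and 120.1 to 151.0 in controls. That of 7 principal cell markers was 517.7 to 619.0 against 642.1 to 705.3. By log2 fold change, 5 macrophage markers were below 0 and 2 above, and 6 principal cell markers below and 1 above. The sum of 3 stromal markers was higher, at 2197 to 2527 against 1922 to 2061 CPM, with Col1a1 at 0.27 ± 0.06 (adjusted p = 0.063 in edgeR). Of the 3, 2 were above 0 and 1 below, with a median log2 fold change of 0.04. Podocyte markers (4) summed to 1089 to 1100 against 1166 to 1256, with 3 below 0 and 1 above. Proximal tubule markers (5) summed to 2722 to 2846 against 2515 to 2645, with 4 above 0 and 1 below. The sum of principal cell markers was also lower in Dmrt2 knockouts, at 605.4 to 659.1 against 673.8 to 933.9 CPM, with 5 below 0 and 2 above. That of endothelial markers (3) was higher, at 630.0 to 638.2 against 581.6 to 620.02 CPM, with all 3 above 0. None of these markers was called in either comparison, and no marker of these lists was at 0 in every library. Their part in the V-ATPase values was not tested. The 6 osteoclast markers summed to 9.70 to 13.1 CPM over all libraries.

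Atp6v0c, the ring subunit through which protons pass, has a near-identical processed pseudogene, Atp6v0c-ps2. Counts of Atp6v0c were lower in libraries where this copy was high than in others of the same deposited table, and the cause was not tested. Over 465 aligned bases the copy was 99.8% identical in transcript sequence, with 1 mismatch, and reads that fit both equally well were not counted. The copy stood at 20.6 to 41.6 CPM in 7 libraries and at 0.320 to 1.04 in the other 17, a split made at 10 CPM after the values were seen. In the Dmrt2 line, Atp6v0c was at 66.5 to 72.6 CPM in the 3 libraries with the high copy (knockout 2, controls 1 and 2), against 106.4 to 135.0 in the others. In the first Hmx3 Hmx2 table it was at 115.3 to 123.6 CPM in 4 such libraries, against 180.3 to 185.7 in the other 2.

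The split fell across genotypes, and the log2 fold change of Atp6v0c in the Dmrt2 line had the widest error of the 32 members, 0.07 ± 0.38. Summed with the copy, the value was −0.02. The sum itself still lay apart, at 87.1 to 93.7 against 107.5 to 135.8 CPM in the Dmrt2 line. In the first Hmx3 Hmx2 table it was at 152.0 to 163.1 against 181.2 to 186.7 CPM. Reads that fit the gene and this copy equally well were not counted, so the sum need not hold all reads of the gene. The part of such reads in the split was not tested. Values of Atp6v0c are thus uncertain. A like copy of Atp6v1g1, Gm13453 (99.4% over 357 bases), was at 0.0843 to 9.10 CPM. It was highest in triple control replicate 2, where Atp6v1g1 was at 93.9 CPM, against 120.7 and 103.9 in the other controls. The libraries labelled triple knockout did not show this order. There the copy was at 4.07, 0.0843 and 3.89 CPM, and Atp6v1g1 at 89.9, 89.5 and 92.9. In the Dmrt2 line the copy had a mean of 4.58 CPM in knockouts and 4.55 in controls. The part of this copy in the values of Atp6v1g1 was not tested. Rnasek, an accessory subunit of V0, shares 67.7% of its exon bases with other genes, and its 0.241 to 0.594 CPM are uncertain for that reason.

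**Figure D5:**
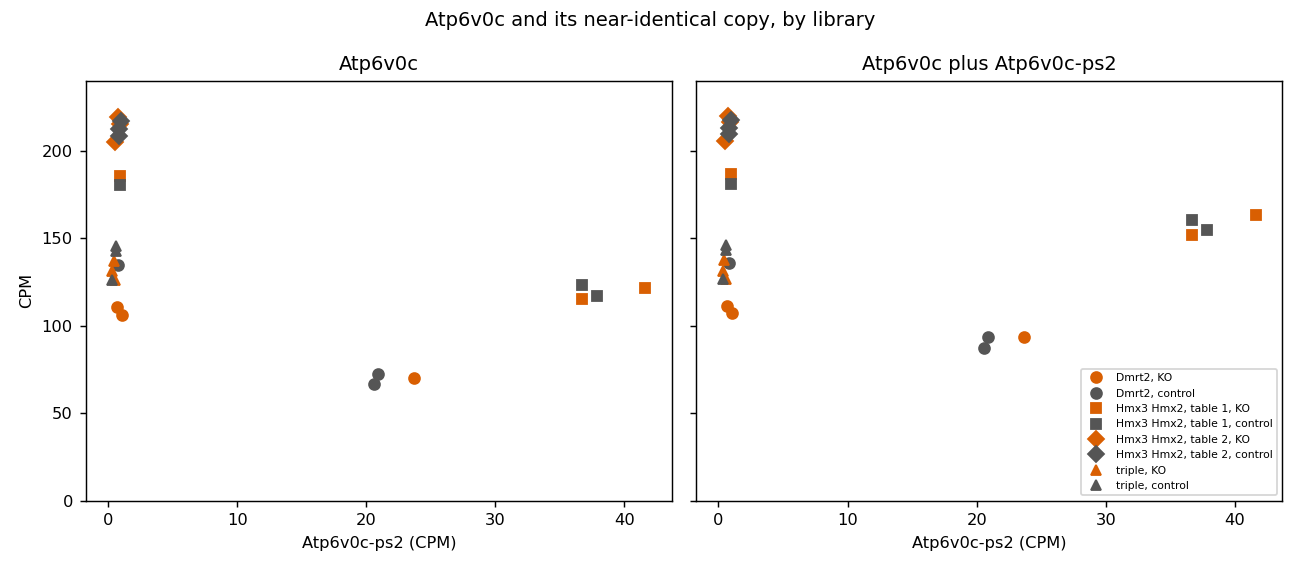
CPM of Atp6v0c (left) and of Atp6v0c with its copy added (right) against CPM of the copy Atp6v0c-ps2, 1 point per library, by line, table and genotype. The 7 libraries with the copy at 20.6 CPM or more have lower Atp6v0c than the other libraries of their own table, in knockouts and controls alike.

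Promoter letters were read for the members with an entry in RefSeq's promoter table (build GRCm38.p6), 24 of the 33 genes and 4 of the 5 isoforms. Each promoter runs from 250 bases before to 50 after the start, and the motifs were searched on both strands. The forkhead motif GTAAACA lay in 1 member promoter, that of Atp6v1b1, and in 3.65% of all 32851 promoters. The shorter core TAAACA, contained in it, lay in the same promoter and in 13.4% of all. The DMRT motif ACAATGT lay in none of the 30 member promoters (2.96% of all), and the HMX motif CAATTAA in those of Atp6v1e2 and Ccdc115 (2.58% of all). The lysosomal CLEAR core CACGTG, the letters at the centre of the element bound by TFEB, lay in 7 of 26 promoters of the widely expressed members (26.9%), in 0 of 4 of the isoforms and in 7.15% of all. Of 23 promoters of lysosome genes, 39.1% held it.

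The 3 stretches below are examples. Atp6v1b1 has the forkhead letters 98 to 92 bases before the start, printed as their reverse complement. Its 1 of 30 member promoters (3.33%) is close to the share of all promoters. Atp6v1g3, which fell, has none of the motifs searched, and neither have Atp6v0a4 and Atp6v1c2, which were not called. Atp6v0b, a widely expressed V0 ring subunit, has 2 CLEAR cores. Each stretch is the 250 bases before the start, 5′ to 3′ on the strand of the gene, with motif letters in capitals. Atp6v1b1 lies at chr6:83742767-83743016 (plus strand), Atp6v1g3 at chr1:138273488-138273737 (plus strand) and Atp6v0b at chr4:117887330-117887579 (minus strand).
Atp6v1b1: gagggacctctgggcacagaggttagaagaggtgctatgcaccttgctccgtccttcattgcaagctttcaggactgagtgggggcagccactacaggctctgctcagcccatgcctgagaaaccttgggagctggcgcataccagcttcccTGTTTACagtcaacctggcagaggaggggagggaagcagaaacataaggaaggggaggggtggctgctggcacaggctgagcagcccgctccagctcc
Atp6v1g3: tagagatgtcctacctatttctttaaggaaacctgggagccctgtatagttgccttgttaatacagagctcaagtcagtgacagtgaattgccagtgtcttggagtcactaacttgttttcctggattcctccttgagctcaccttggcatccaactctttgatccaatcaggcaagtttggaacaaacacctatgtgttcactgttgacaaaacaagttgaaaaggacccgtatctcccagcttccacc
Atp6v0b: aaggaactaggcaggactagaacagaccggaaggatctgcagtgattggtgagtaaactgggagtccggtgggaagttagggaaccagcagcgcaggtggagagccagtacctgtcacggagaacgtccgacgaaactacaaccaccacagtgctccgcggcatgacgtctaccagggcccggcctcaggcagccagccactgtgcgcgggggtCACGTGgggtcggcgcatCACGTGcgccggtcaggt
A match is a description of letters and no evidence of a bound site, and a missing match says only that these letters are not in this window.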

How the data were processed

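Whole-kidney RNA, poly(A)-selected per the labels' protocols, was read at 150 bp in 24 libraries. The authors deposited raw counts per gene in 4 tables of 54393 genes. The submitters' processing notes list fastp 0.20.1 (trimming), STAR 2.7.0e (alignment) and featureCounts 2.0.1, with the build mm39. The file headers name featureCounts 2.0.3, GENCODE vM29, and counting of exons by gene name without strand, multi-mapping or overlapping reads. Per the file headers both reads of a pair were counted, and 87.9% to 94.1% of counts from 1 to 19 were even, so a count is a read, not a fragment, and floors treat reads as more independent than they are. The exon length per gene is that of the deposited tables. 2 unmatched columns were left out.

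Counts were tested in edgeR 4.0.16 (R 4.3.3) with TMM scaling, filterByExpr (minimum count 10, total 15), the robust quasi-likelihood test and Benjamini-Hochberg adjustment over all genes tested, threshold 0.05. The fit of the Hmx3 Hmx2 line had the deposited table as a term, and differences between effects came from 1 fit of the 24 libraries. SE were taken as |log2 fold change|/√F. CPM use TMM-scaled totals of the 24 libraries. Alternatives were DESeq2 1.42.0, other scalings and filters, a replicate block, a Y-linked covariate, halved counts and leaving out each library. The scripts were tested on simulated data. Near-identical copies were sought with blastn 2.17.0 (identity of at least 95%).

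The members, gene lists and named genes (5 isoforms, their paralogs, called members and the 2 largest changes each way) were chosen with earlier results of these data known.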

Additional observations from a re-analysis of the deposited data

Results flagged for a closer look

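The difference between knockout effects passed an adjusted p under 0.05 in edgeR for 3 results. For Atp6v1g3 the Dmrt2 effect minus the Hmx3 Hmx2 effect was −0.91, and the effect in libraries labelled triple knockout minus the Hmx3 Hmx2 effect was −0.64. For Atp6v1h the latter difference was −0.29.

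In the groups of 6 libraries, 5 of 64 sets of values held a library far from the others by Dixon's test, which chance alone gives in about 1 of 20 sets. Atp6v1b2 was at 189.5 CPM in Hmx3 Hmx2 knockout replicate 1, next to 174.5, and at 173.5 CPM in control replicate 2, next to 167.8. Dmxl2 was at 50.3 CPM in knockout replicate 1, next to 37.6. Atp6v1f was low in knockout replicate 3, at 73.5 CPM next to 82.7, and Tmem199, an assembly factor, was high in knockout replicate 5, at 20.4 CPM next to 18.6.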

How the results depend on the processing

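The count of called members in Dmrt2 knockouts (1) was 2 by DESeq2, 2 unfiltered, 0 with the Y-linked covariate, and 0 to 1 with each library left out in turn. In the triple comparison (2 called) it was 4 by DESeq2, 10 unfiltered, 0 with a mean of at least 1 CPM, 1 with the Y-linked covariate, 6 in the joint fit and 0 to 4 with libraries left out. In the Hmx3 Hmx2 comparison it was 0 under every alternative run. For the triple minus Hmx3 Hmx2 effect (2 called) it was 5 with DESeq2, 1 with the covariate and 0 to 8 with libraries left out; for the Dmrt2 minus Hmx3 Hmx2 effect (1), 2 with DESeq2 and 1 to 2; for the triple minus Dmrt2 effect (0), 0 to 1. The cause of these changes was not tested.

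All genes called in the Dmrt2 comparison numbered 88, with 26 without knockout replicate 2, 195 without control replicate 1, 13 with the covariate, 676 unfiltered and 429 by DESeq2. In the triple comparison they numbered 222, with 20 without knockout replicate 3, 51 with the block, 1085 by DESeq2, 573 in the joint fit and 1510 unfiltered.

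Replicate numbers did not pair the libraries: correlations of same-numbered deviations were 0.014 to 0.047 in the Dmrt2 line, 0.0059 to 0.133 in the Hmx3 Hmx2 line and −0.143 to −0.011 in the triple line. With a replicate block, 1 member was called in the Dmrt2 comparison, 0 in the Hmx3 Hmx2 comparison, 0 in the triple comparison, 0, 3 and 1 for the differences triple minus Dmrt2, triple minus Hmx3 Hmx2 and Dmrt2 minus Hmx3 Hmx2. Not every library correlated best with its own number in any line.

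Signs changed for values near 0, none of them called, with 1 library left out. In the Dmrt2 comparison Atp6v1c2 ran from −0.070 to 0.112 and Atp6v1h from −0.074 to 0.063. Atp6v1h ran from −0.0014 to 0.035 in the Hmx3 Hmx2 comparison and from −0.098 to 0.040 for the Dmrt2 minus Hmx3 Hmx2 effect. Atp6v1c2 ran from −0.118 to 0.0087 in the triple comparison and from −0.172 to 0.012 for the triple minus Dmrt2 effect, where Atp6v0d2 ran from −0.047 to 0.118. Atp6v0c in the Dmrt2 line went from 0.07 to −0.017 when summed with its copy, an alternative chosen after seeing the data. Without division by length, isoform shares were 37.8% for Atp6v1b1, 33.9% for Atp6v0a4, 14.8% for Atp6v0d2, 14.5% for Atp6v1c2 and 9.97% for Atp6v1g3.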
